A study of Arabidopsis thaliana with 4 samples.

Results

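Of the regions called as occupied by KAN1 in Arabidopsis plants, 356 lay between convergent genes, that is, between a left-hand gene on the plus strand and a right-hand gene on the minus strand, so that each region was downstream of both neighbours. Members were chosen by their read ratio and by the gene neighbours given in the deposited table. They had a mean ratio of ChIP to control reads of at least 3, no overlapping gene listed there and convergent neighbours. The centre of the region was less than 3000 bp from the nearer gene. Because distances ran from the centre, a whole region could still reach into a neighbour. The region beside AT1G70944, for example, was 652 bp long with its centre 1 bp from that gene. The members made up 8.55% of the 4166 regions on chromosomes 1 to 5 that reached a ratio of 3, here called bound. On these chromosomes 22103 regions were called. KAN1-FLAG samples were Columbia-0 plants carrying 35S:FLAG-GR-KAN1, in which the viral 35S promoter drives the fusion protein in most cell types, precipitated with an antibody against FLAG. The control samples carry the label input, while the study's methods describe chromatin of Col-0 wild type without the transgene, as 1 library where the labels list 2. All plants were grown for 10 days in liquid culture and treated with dexamethasone for 45 min. There were 2 libraries per group, from whole plants, so binding in a particular cell type cannot be read from them, and the labels do not say whether replicates came from separate cultures.

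KAN1 is a GARP-family transcription factor that promotes abaxial identity, the lower side of leaves and the outer side of other lateral organs, and it acts largely as a repressor. Fusion to the glucocorticoid receptor (GR) keeps the protein in the cytoplasm until dexamethasone is given. Binding is usually looked for in front of genes; a region between convergent genes lies behind both of its neighbours, next to their transcript ends, and in front of neither.

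The 3 sequences below are the central 300 bp of the members with the highest ratio, beside AT1G25550 and TEM1, and of the 2 members with the most sites of the KAN1-enriched motif VGAATAW. Capitals mark every site, that is any of the forms starting with A (AGAATAA or else AGAATAT), those starting with C (CGAATAA or else CGAATAT) and those starting with G (GGAATAA or else GGAATAT), on either strand. Coordinates are TAIR10, and sequences are from the RefSeq assembly TAIR10.1, where none of the 3 windows overlaps an exon. The first window holds 4 sites, the next 5 and the last 7.
AT1G25550/TEM1, chr1:8978458-8978757, plus strand: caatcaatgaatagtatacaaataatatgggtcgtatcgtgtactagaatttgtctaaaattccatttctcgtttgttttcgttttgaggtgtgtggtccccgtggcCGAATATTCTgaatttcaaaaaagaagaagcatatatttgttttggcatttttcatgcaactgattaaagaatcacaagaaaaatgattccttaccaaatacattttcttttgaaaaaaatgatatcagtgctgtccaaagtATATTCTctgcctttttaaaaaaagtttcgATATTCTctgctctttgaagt
PPCK1/MGP2, chr1:2754075-2754374, plus strand: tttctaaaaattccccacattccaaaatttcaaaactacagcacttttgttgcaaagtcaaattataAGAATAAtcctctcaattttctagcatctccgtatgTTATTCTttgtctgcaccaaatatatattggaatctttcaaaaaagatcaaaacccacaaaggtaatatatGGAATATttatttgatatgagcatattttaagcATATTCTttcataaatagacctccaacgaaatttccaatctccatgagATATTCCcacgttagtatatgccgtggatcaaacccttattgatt
AT5G27690/AT5G27700, chr5:9805585-9805884, plus strand: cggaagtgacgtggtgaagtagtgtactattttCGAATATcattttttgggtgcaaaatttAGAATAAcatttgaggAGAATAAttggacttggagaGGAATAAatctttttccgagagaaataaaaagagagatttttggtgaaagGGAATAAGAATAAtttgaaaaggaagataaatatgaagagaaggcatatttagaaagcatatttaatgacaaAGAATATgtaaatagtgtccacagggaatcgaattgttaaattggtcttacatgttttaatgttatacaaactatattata

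The following windows of 61 bp hold the site nearest to the centre of 11 further members described below, with the site read 5′ to 3′ on the strand given and all sites again in capitals. None of them overlaps a reference exon. The windows beside NPY5 and ATHB8 hold 2 sites each, on opposite strands, and the other 9 hold 1.
IRT1/AT4G19700, chr4:10712960-10713020, plus strand: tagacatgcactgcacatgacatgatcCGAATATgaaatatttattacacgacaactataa
AT3G12915/BRG3, chr3:4118841-4118901, plus strand: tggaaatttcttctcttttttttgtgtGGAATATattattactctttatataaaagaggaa
BRG2/AT1G79120, chr1:29762856-29762916, minus strand: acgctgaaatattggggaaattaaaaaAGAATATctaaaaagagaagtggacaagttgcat
AT5G62420/CDF1, chr5:25068478-25068538, minus strand: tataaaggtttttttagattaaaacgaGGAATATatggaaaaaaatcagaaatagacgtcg
AT4G02370/SAG21, chr4:1044920-1044980, plus strand: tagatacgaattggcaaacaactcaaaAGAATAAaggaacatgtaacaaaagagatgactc
HLS1/NPY5, chr4:17662010-17662070, minus strand: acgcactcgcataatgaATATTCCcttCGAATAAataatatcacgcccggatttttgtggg
GH3.5/AT4G27270, chr4:13660475-13660535, plus strand: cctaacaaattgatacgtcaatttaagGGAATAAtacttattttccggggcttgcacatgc
AT5G60966/TCP5, chr5:24532570-24532630, minus strand: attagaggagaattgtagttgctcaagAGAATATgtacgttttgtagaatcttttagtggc
AT4G32870/ATHB8, chr4:15862838-15862898, minus strand: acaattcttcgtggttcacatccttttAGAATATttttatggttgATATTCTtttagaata
AS2/DEG3, chr1:24401330-24401390, plus strand: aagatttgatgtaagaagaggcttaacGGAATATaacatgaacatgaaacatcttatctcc
AT4G17690/KAN3, chr4:9847715-9847775, minus strand: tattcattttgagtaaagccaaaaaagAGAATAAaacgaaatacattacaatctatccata

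The strongest region, at chr1:8978332-8978884, lay between AT1G25550, a myb-like transcription factor gene, and TEM1, a RAV-family AP2/B3 repressor of flowering. The ChIP libraries held 1295 reads there (replicate 1) and 678 (replicate 2), the control libraries 73 (control 1) and 1 (control 2), the order kept throughout. Its ratio was 13.3 ± 5.90 (SD, n = 2), with an exact 95% counting interval of 10.6 to 17.05. Its centre was 514 bp behind AT1G25550 and 3069 bp behind TEM1, and no other called region lay in this gap. Both neighbours also had bound regions in front of them, 1 at AT1G25550 and 3 at TEM1. Counting intervals here cover the sampling of reads alone. Each SD is over 2 ratios that share their control reads and are not scaled for depth. It therefore includes the higher read number of replicate 1, at a median of 2.01 reads for each read of replicate 2 in members.

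The second region lay between AT4G40070, a RING/U-box gene, and AT4G40085, which the reference annotates as a long non-coding RNA. It had 439 and 255 ChIP reads and 27 and 3 control reads, a ratio of 11.6 ± 4.34 (SD, n = 2), and lay 103 bp from AT4G40085. The third lay in the gap of 4545 bp between IRT1, the main iron uptake transporter of the root, and AT4G19700, known as BOI, a RING protein that interacts with DELLA growth repressors. It had 1084 and 563 ChIP reads and 76 and 1 control reads, a ratio of 10.7 ± 4.78 (SD, n = 2), and was 483 bp from AT4G19700 but 4062 bp from IRT1. Only these 3 members reached a ratio of 10.

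Ratios of 8.80 to 9.69 were found in 6 more of the 10 strongest members. The region between AT5G62420 and CDF1, a DOF factor that represses photoperiodic flowering, had 714 and 346 ChIP reads and 57 and 2 control reads. Between PPCK1, a kinase of phosphoenolpyruvate carboxylase, and MGP2 there were 594 and 376 ChIP reads and 51 and 3 control reads. All 10 centres were intergenic in the reference, and by the centres the neighbours were convergent there as well. Taken as whole regions, some of them overlapped a reference gene, among them the one beside AT4G40085.

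At the SAG21 region, beside a senescence-associated gene, the libraries held 502 and 325 ChIP reads and 46 and 1 control reads. The region between AT1G22560 and AT1G22570, a major facilitator transporter gene, was the only one of the 10 without a VGAATAW site, at 608 and 364 ChIP reads and 51 and 2 control reads. In each of these regions both ChIP libraries were above both control libraries, as the plot of reads by library shows, and replicate 1 was above replicate 2.

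**Figure D1:**
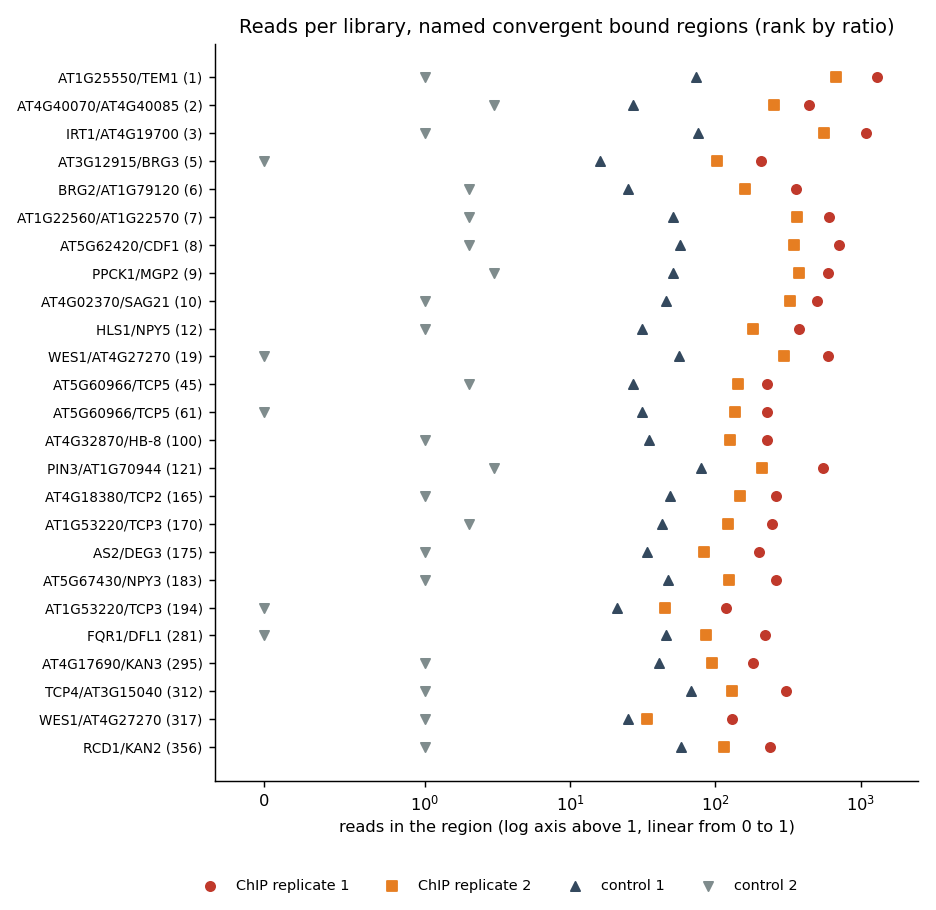
Reads in each of the 4 libraries (x axis, logarithmic above 1 and linear from 0 to 1) for 9 of the 10 convergent bound regions with the highest ratio and for all members beside a gene of the 9 family lists (y axis, gene pair with the rank by ratio in brackets; HB-8 is ATHB8, WES1 is GH3.5 and DFL1 is GH3.6). Circles and squares are the ChIP libraries and triangles the control libraries. The ChIP libraries lie to the right of the controls in every region shown, from 1295 and 678 against 73 and 1 reads beside TEM1 to 239 and 115 against 58 and 1 beside KAN2.

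BRG2 and BRG3, RING-protein relatives of BOI, each lay beside 1 of the 10 strongest members. The gap of 5931 bp between AT3G12915 and BRG3 held 4 members. Their ratios, from left to right, were 4.12, 9.69, 7.63 and 8.73, and the one with 9.69 had 207 and 103 ChIP reads and 16 and 0 control reads. The gap of 3384 bp between BRG2 and AT1G79120 held 3 members with ratios of 8.02, 9.56 and 5.74. The one with 9.56 had 356 and 160 ChIP reads and 25 and 2 control reads. No called region of these gaps had a ratio below 3.

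With these values seen, the family was looked at as a whole. All 4 genes, BOI, BRG1, BRG2 and BRG3, had convergent bound regions beside them, 2 at BOI, 2 at BRG1, 3 at BRG2 and 4 at BRG3. Of all reference genes on chromosomes 1 to 5, 1.46% had a member beside them. Binding at the family was not limited to this class, as bound regions of any class beside the 4 genes numbered 6, 5, 6 and 7 in this order. At BRG1 and BRG3 the highest ratio, 6.37 and 10.1, was not that of a member, while at BOI and BRG2 it was. The 2 convergent BRG1 regions had 296 and 150 ChIP reads with 37 and 3 control reads, a ratio of 5.58, and 361 and 148 ChIP reads with 65 and 4 control reads, a ratio of 3.69. The second BOI region was among the weakest members at 3.01, and its centre lies in an untranslated or non-coding exon in the reference. Regions that share a gene pair are not independent of each other, and the family was picked after its values were known.

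**Figure D2:**
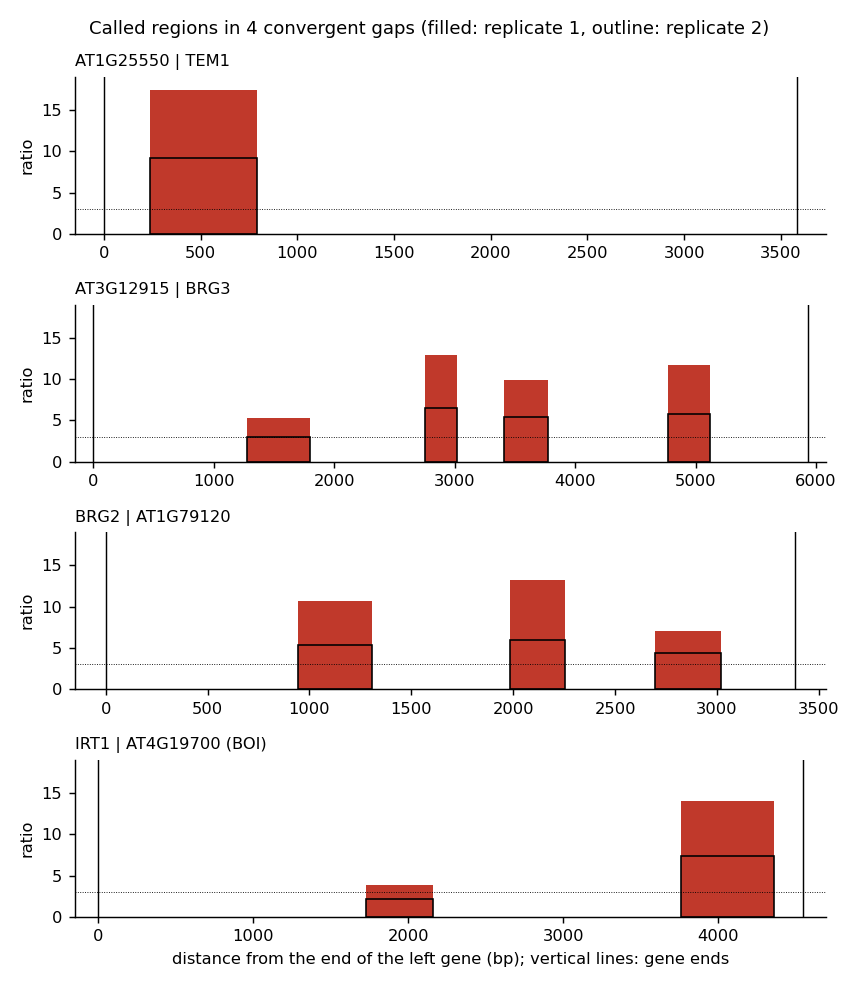
Called regions in the convergent gaps of AT1G25550 and TEM1, AT3G12915 and BRG3, BRG2 and AT1G79120, and IRT1 and AT4G19700 (BOI). The x axis is the distance in bp from the end of the left gene, vertical lines are the gene ends, bar width is the region, the filled height is the ratio of ChIP replicate 1 and the outline that of replicate 2; the dotted line is a ratio of 3. The TEM1 gap holds a single region with 17.5 and 9.16, and the BRG3 gap holds 4 regions, the highest with 12.9 and 6.44.

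Over the members, reads ranged from 32 to 1295 for ChIP replicate 1 (median 226) and from 8 to 678 for replicate 2 (median 114). For the control libraries they ranged from 5 to 112 (median 39) and from 0 to 6 (median 1). Control 2 had no reads in 137 members, so the denominator was in effect that of control 1. Over all called regions the libraries held 2082943, 1036664, 661648 and 13442 reads in this order, and the depth of the whole libraries is unknown. The ratios were not scaled for depth.

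The ratio of replicate 1 was above that of replicate 2 in all 356 members, with a median of 5.48 against 2.66. Members had a median of 2.01 reads of replicate 1 for each read of replicate 2, and all called regions 2.03. A ratio of 3 was reached in replicate 1 by all members and in replicate 2 by 134, or 37.6%, compared with 39.1% of all bound regions. The mean ratio had a median of 4.05 and a range of 3 to 13.3. The counting interval lay wholly above 3 in 158 members.

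**Figure D3:**
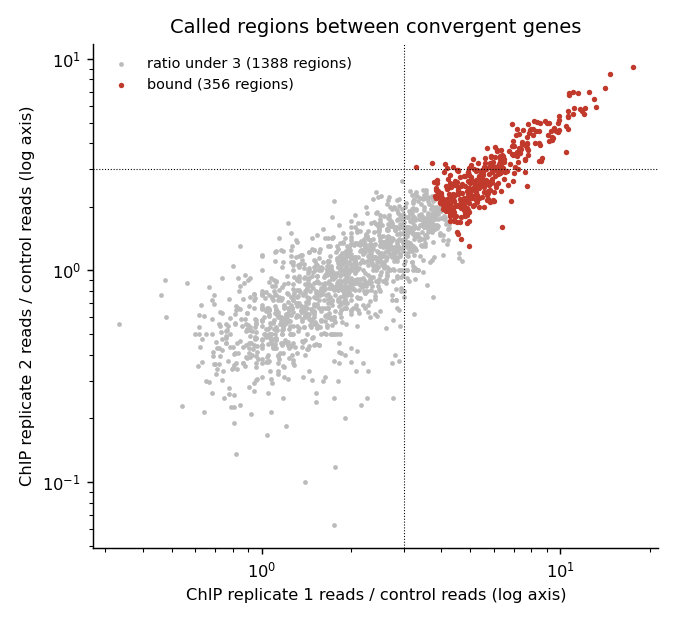
Ratio of ChIP to control reads in replicate 1 (x axis) and replicate 2 (y axis), both on log axes, for the 356 convergent bound regions (red) and 1388 called convergent regions with a mean ratio under 3 (grey); dotted lines mark a ratio of 3. Both ratios of a region share the same control reads. All red points lie right of the vertical line, and 134 lie above the horizontal line.

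Of 1744 called regions between convergent genes and within 3000 bp, 356 were bound, or 20.4%, compared with 18.8% of all called regions. The share was 24.6% between divergent genes, 21.3% between tandem genes and 7.97% in regions overlapping a gene. These shares are descriptions, since the ratio chose the members. A further 10 bound convergent regions lay 3000 bp or more from both genes. Members were spread over the chromosomes, with 96, 54, 78, 53 and 75 on chromosomes 1 to 5.

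At the threshold, the weakest members were a region beside RCD1 and KAN2 with 239 and 115 ChIP reads and 58 and 1 control reads, a region beside AT3G17580 and BSH, both at a ratio of 3, and the second region between IRT1 and AT4G19700 at 3.01. Just below it were regions between AT2G21187 and AT2G21188 at 2.99, AT5G44660 and GALS2 at 2.98, and AT1G51160 and UCN at 2.96. The counting interval of the KAN2 region was 2.27 to 4.02, so these regions on either side of 3 were not distinguishable at their depth. At the distance limit, the last members inside were those of AT4G01516 and NAC067 at 2910 bp and of AT3G12915 and BRG3 at 2888 bp. The first outside were those of MIR426 and NAT7 at 3078 bp and of DREB26 and AT1G21920 at 3255 bp.

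The gap between the 2 neighbouring genes had a median of 2592.5 bp in members and 1999.5 bp in the 1388 called convergent regions with a ratio under 3. The centre of a member was a median of 578 bp from the nearer gene end, compared with 320 bp in those regions. Within 500 bp of a gene end lay 43.0% of members and 61.9% of the regions under 3. Nearer to the middle of the gap than to either gene end lay 54.2% and 44.2%, respectively. Regions under 3 were also shorter, with a median of 232 bp against 363.5 bp.

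**Figure D4:**
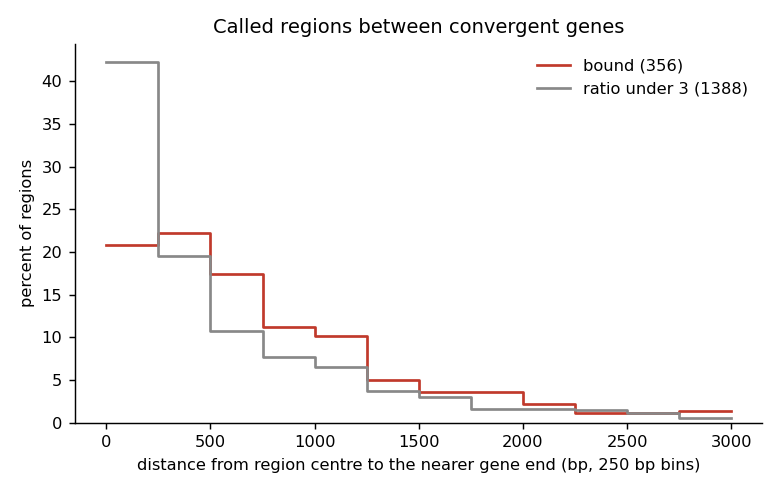
Percent of regions (y axis) by the distance in bp from the centre of the region to the nearer gene end (x axis, bins of 250 bp) for the 356 convergent bound regions (red) and the 1388 called convergent regions with a ratio under 3 (grey). In the first bin lie 20.8% of the bound regions, and the grey line is higher there.

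The 356 members fell into 283 gene pairs, of which 223 had 1 member, 49 had 2, 9 had 3 and 2 had 4, so 133 members shared their pair with another. The neighbours were 567 genes. Both neighbours were protein-coding in 300 members, or 84.3%. In 6 members a neighbour was a tRNA gene, among them both regions of TCP5 and both of TCP3. In the reference gene models, which extend many transcript ends, 313 centres were intergenic, 40 lay in an untranslated or non-coding exon and 3 in an intron. By their centres, 269 members were convergent in the reference, 39 tandem, 43 overlapping, 4 divergent and 1 none of these. Taken as whole regions, 212 were convergent there, 32 tandem, 108 overlapping, 3 divergent and 1 none of these.

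Sites of VGAATAW were found in 241 members, 424 sites in all, and 115 members had none. AGAATAA was the most frequent form with 133 sites, followed by AGAATAT with 110, GGAATAT with 58, GGAATAA with 54, CGAATAT with 40 and CGAATAA with 29. Site density was 4.38 and 4.44 per kb in the 50 bp to the left and to the right of the centre and 1.46 to 1.74 per kb at 400 to 500 bp to the left. Nearer to the centre than to either edge of the region lay 65.3% of the sites, and 62.0% of those in convergent regions with a ratio under 3.

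In the central 300 bp, 222 members had a site, or 62.4%. Windows of the same length 1000 bp to either side had one in 29.1%, and regions between convergent genes with a ratio under 3 in 44.1%. AT content was 68.0% in members, 64.6% in their flanks and 67.7% in regions under 3. The motif itself came from bound regions of this experiment, so its presence in members is a description.

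Whether regions behind genes carry the motif as often as those in front of genes was tested on the reference sequence, which the choice of members did not use. A site was present in 66.6% of 1328 bound regions between divergent genes, which are in front of both neighbours. The odds ratio, convergent over divergent, was 0.829 with a 95% interval of 0.646 to 1.07, and the difference of 4.28 percentage points fewer did not pass the test (Fisher's exact test, two-sided, with p = 0.132 and an adjusted p of 0.264 over the 2 tests). Tandem bound regions had a site in 65.1% of 1805, an odds ratio of 0.888 with an interval of 0.698 to 1.13 (same exact test, p = 0.332 before and after adjustment). Both intervals include lower and higher shares in convergent regions, and neighbouring regions are not fully independent. With neighbours taken from the reference gene models and no overlap of the whole region with any gene, the difference from tandem regions passed Fisher's exact test at an adjusted p of 0.0328 (59.6% against 67.4%).

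Because AATAAA, the polyadenylation hexamer of transcript ends, shares bases with GAATAA followed by A, it was counted too. It was in the central 300 bp of 70.2% of convergent, 70.8% of divergent and 70.0% of tandem bound regions, in 61.7% of convergent regions with a ratio under 3 and in 47.1% of the flanks of the convergent bound ones. Sites that do not form AATAAA with the next base on their own strand were present in 53.1% of convergent, 56.2% of divergent and 55.0% of tandem bound regions. Other overlaps with AATAAA, such as those on the opposite strand, were not excluded. CACGTG, the G-box, was in 10.4%, 10.4% and 10.7%.

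**Figure D5:**
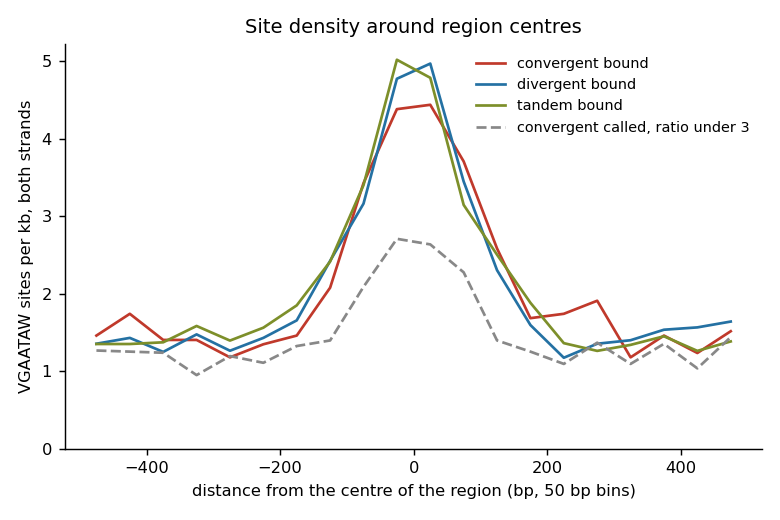
Density of VGAATAW sites per kb on both strands (y axis) by distance in bp from the centre of the region (x axis, bins of 50 bp) for convergent, divergent and tandem bound regions and for called convergent regions with a ratio under 3 (dashed). All lines peak at the centre, the bound convergent regions at 4.44 and the regions under 3 at 2.71 sites per kb.

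Members with more sites had somewhat higher median ratios. The ratio chose the members and the motif came from bound regions of this experiment, so the trend is a description and was not tested. The median ratio was 3.91 in the 115 members without a site, 4.02 in the 125 with 1 and 4.31 in the 116 with 2 or more. Region size moved with the number of sites, at medians of 334, 361 and 386.5 bp, and its part in this was not tested. Among the 89 members with the highest ratios, 76.4% had a site in the central 300 bp, and among the 89 with the lowest 57.3%. The richest member, with 7 sites between AT5G27690 and AT5G27700, was weak, at 193 and 129 ChIP reads, 50 and 0 control reads and a ratio of 3.22. PPCK1/MGP2 followed with 5 sites, and 10 members had 4.

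Families with known roles in leaf polarity, auxin and leaf growth were looked at as 9 lists of 59 genes, and 14 of these genes had a member beside them. Of all 37899 reference genes on chromosomes 1 to 5, 1.46% had one. The lists were made with earlier results of these data known, so the contrast is a description and not evidence about the families. The CIN-type TCP genes, which restrain cell proliferation in growing leaves, had 4 of 8, the KANADI genes 2 of 4, the GH3 genes of auxin conjugation 2 of 7, and the PID and NPY genes 2 of 9. HD-ZIP III, the AS and ARF polarity genes, PIN and RAV with NGATHA had 1 each, and YABBY had 0 of 6. Bound regions of other classes were not compared in this way. Several listed genes had only such regions, among them RAV1 with 9, KAN1 with 6, TCP13 with 5 and YAB2 and YAB3 with 1 each. Others, such as KAN4, PIN2 and FIL, had no bound region of any class.

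Among polarity genes, ATHB8, an HD-ZIP III gene of the procambium, had a region 560 bp behind it with 226 and 125 ChIP reads and 35 and 1 control reads, a ratio of 4.88 ± 1.98 (SD, n = 2) and 4 sites. The other neighbour, AT4G32870, was nearer to this region, at 150 bp, and the whole region overlapped a gene in the reference models. The paper reports KAN1 binding at the end of ATHB8 and lower ATHB8 transcript levels after KAN1 induction. The list of down-regulated genes used below does not mark ATHB8. AS2, which promotes adaxial fate, had a region 424 bp behind it with 201 and 83 ChIP reads and 34 and 1 control reads, a ratio of 4.06 ± 2.38 (SD, n = 2). Replicate 2, in which 134 of the 356 members reached a ratio of 3, did so at ATHB8 (3.47) and not at AS2 (2.37). Of the KANADI genes, KAN3 had a region 214 bp behind it with 180 and 94 ChIP reads and 41 and 1 control reads, a ratio of 3.26. At KAN2 the convergent region was 2884 bp away and at the threshold. Bound regions of any class beside KAN2 numbered 3, with none in front of it or inside it, so this member is not all of the binding behind KAN2. The convergent regions of KAN3 and KAN2 were both below 3 in replicate 2.

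Of the TCP genes, TCP5 had 2 regions, with 227 and 143 ChIP reads over 27 and 2 control reads (ratio 6.38) and with 226 and 137 over 31 and 0 (ratio 5.85), at 3044 and 2282 bp behind it. The tRNA gene AT5G60966 on the other side was nearer, at 787 and 1549 bp. The replicate ratios of both TCP5 regions were 4.42 or higher. TCP2 had 262 and 148 ChIP reads over 49 and 1 (ratio 4.10) at 2717 bp. TCP3 had regions with ratios of 4.08 and 3.90, both without a site, and TCP4 a region with 3.15 at 516 bp. In replicate 2, where 134 of the 356 members reached a ratio of 3, TCP5 was above 3 and the regions of TCP2, TCP3 and TCP4 were below it.

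Of the PID and NPY, GH3 and PIN lists, 5 genes had members beside them. NPY5, whose NPH3-type protein acts with the PINOID kinase in organ formation, shared a gap with HLS1, a regulator of the apical hook, and the region 808 bp behind it had 379 and 182 ChIP reads over 31 and 1 control reads, a ratio of 8.77 ± 4.35 (SD, n = 2). NPY3 had 262 and 123 over 47 and 1, a ratio of 4.01, at 184 bp. GH3.5, an auxin-conjugating enzyme, had a region with 595 and 297 over 56 and 0, a ratio of 7.96, but this was 4421 bp away and only 705 bp from AT4G27270. Its second region, 971 bp behind GH3.5, had 129 and 34 over 25 and 1, with ratios of 4.96 and 1.31 in the replicates. GH3.6 had a region with a ratio of 3.33 at 2222 bp, with FQR1 at 2366 bp on the other side. PIN3, an auxin efflux carrier, had 553 and 210 over 80 and 3, a ratio of 4.60, at 2740 bp and with no site. The centre of the PIN3 region was 1 bp from AT1G70944. In replicate 2, the NPY5 region (5.69) and the first GH3.5 region (5.30) were above 3. The regions of NPY3 (2.56), GH3.6 (1.87) and PIN3 (2.53) were below it, as was the second GH3.5 region.

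Members were also set beside the rest of the binding map at their neighbours. Of the 567 neighbouring genes, 165 had a bound region in front of them as well, or 29.1%, and 34 had one inside, or 5.996%. Among 2055 genes that flanked only convergent regions with a ratio under 3, the share with a bound region in front was 15.9% and with one inside 1.80%. Any called region in front was present in 71.1% and 56.7%, respectively, and the difference was not tested. In 168 members exactly 1 neighbour had a bound region in front, in 21 both and in 167 neither. In 145 members neither neighbour had a bound region in front of or inside it.

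A list of genes with lower transcript levels after induction of KAN1 accompanies the study, and neighbours were marked by it. Expression was not analysed here. By the paper's methods, the list came from another inducible KAN1 line, grown on plates and given a different dexamethasone treatment. Its transcripts were measured on tiling arrays, later after induction than the binding, and changes were assessed graphically. Binding and transcript levels were therefore not measured in the same plants. On this list were 39 of the 567 neighbours, or 6.88%, and 45 of the 2055 genes beside regions under 3, or 2.19%. At least 1 listed neighbour was present in 12.6% of members, in 16.4% of divergent and 14.3% of tandem bound regions, and in 6.05% of convergent regions under 3. In 43 members exactly 1 neighbour was listed, and it was the nearer gene in 21 of them. Of the 39 listed neighbours, 28 had a bound region in front of them too.

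The listed neighbours of the strongest members were AT1G25550 and TEM1, BRG3 with 3 regions, AT1G22570, NPY5, GH3.5, AT1G02620, RAP2.7 and CIPK12. RAP2.7, an AP2-type flowering repressor, had 426 and 201 ChIP reads over 43 and 1 control reads 189 bp behind it, a ratio of 7.13. CIPK12, a calcium-regulated kinase gene, had 537 and 321 over 62 and 2 at 133 bp, a ratio of 6.70, and 4 bound regions in front. AT1G02620 had 462 and 233 over 47 and 0, a ratio of 7.39, although the centre of this region lies in a gene in the reference models.

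The 11 listed neighbours with no bound region in front of them were GME, ROC3, PIRL4, AT5G11070, GTL1, AT1G21920, WRKY45, TCP3, GH9B1, BRL2 and GH3.6, and GH9B1 had one inside. The highest ratios among them were those of GME, an enzyme of ascorbate synthesis, with 6.23 at 2420 bp, and ROC3, a cyclophilin, with 5.44 at 68 bp. The GME region had 11 and 2 control reads and a counting interval of 3.54 to 11.95, and its neighbours were tandem in the reference models. The centre of the ROC3 region lies in an untranslated or non-coding exon there. GTL1, a trihelix factor of trichome growth, had 4.61 at 249 bp. This region was convergent by its centre in the reference as well, although the whole region overlapped a gene there. The 11 were named because their number was small, after their values were seen.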

How the data were processed

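ChIP-seq of 2 KAN1-FLAG and 2 control libraries was used. The authors aligned reads to TAIR10, thinned duplicates, called regions against the control and deposited estimated counts of reads per region and library without scaling; aligner and caller are not given in the sources used here. The deposited table also holds the authors' false discovery rates, ranks and log2 rank products, which were not used. Other deposited values were region sizes and distances in bp from the centre of a region to the nearest genes. No per-sample column was left unmapped.

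The ratio was the mean of both ChIP libraries over the sum of both controls. The members, gene lists and comparisons were chosen with earlier results of these data known. No count test was run, because regions were called by the same comparison. Exact 95% counting intervals came from the summed reads, rounded to whole numbers. Sequences and gene models came from TAIR10.1: 12 of 12 transcripts with TAIR10 coordinates matched in their first 20 bases, while 24.9% of 696 neighbouring gene ends were within 1 bp of the deposited ones (median difference 67.5 bp). Coordinates take the deposited position as the first base, which may be off by 1 bp. Of 567 neighbours, 554 were found in the reference table.

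Named were the 10 highest ratios, the members at each limit, members beside a gene of the 9 lists, those with the most sites and the 10 highest with a neighbour on the down-regulated list. The values of 1 of the 10 highest are not reported here. Fisher's exact tests with Benjamini-Hochberg adjustment compared motif shares. The motif search was checked on sites planted in simulated sequence of C and G alone, where no other site can arise, so false sites could not be assessed. The test was checked on independently simulated regions, which does not cover regions that share a gene pair. Alternatives covered the threshold, controls, replicates, scaling, 10 added reads, gene models, distance and motif window. Python 3.11.15, numpy 2.4.6, scipy 1.17.1, pandas 2.3.3 and matplotlib 3.10.9 were used.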

Additional observations from a re-analysis of the deposited data

How the results depend on the processing

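The number of convergent bound regions depended on the threshold and on single libraries. It was 356 as reported, 185 at a ratio of 4, 233 with 10 reads added to the ChIP and control counts and 134 with a ratio of at least 3 required in each ChIP replicate. Leaving out each library in turn gave 134 to 686: 134 without KAN1-FLAG replicate 1, 586 without KAN1-FLAG replicate 2, 373 without control replicate 2 and 686 without control replicate 1, where only regions with control 2 reads have a value. It was 307 with the ChIP libraries scaled to the same total, 275 with whole-region neighbours from the reference gene models, 350 with these models by the centre alone (chosen after seeing the data) and 255 below 1000 bp. The odds ratio for a motif site against divergent regions was 0.829 as reported, and leaving out each library gave 0.816 to 1.12; it changed direction to 1.12 with a ratio of 3 in each ChIP replicate. Against tandem regions it was 0.888, 0.877 to 1.06 with each library left out, and 1.07 with a ratio of 3 in each replicate. It passed Fisher's exact test only with whole-region neighbours from the reference gene models, at 0.716 (adjusted p = 0.0328, range over the alternatives up to 0.834). The cause was not tested. No paired analysis was possible because the number of regions comes from no test and the motif tests compare regions, not libraries.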

Other observations

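Several gaps, picked after their values were seen, held 3 or more convergent bound regions. The gap of 4034 bp behind ERF4, an ethylene response factor of the repressor type, held 4, with ratios of 5.74, 3.95, 4.63 and 4.58 and no control 2 reads in any of them. None of these 4 was convergent by its centre in the reference models, where 3 were tandem and 1 overlapped a gene. Behind BEE1 (AT1G18400), a brassinosteroid-induced bHLH gene, a gap of 2784 bp held 3, with ratios of 4.40, 4.66 and 5.49. Behind AIF1 (AT3G05800) there were 3 in 2679 bp, with ratios of 3.90, 5.48 and 3.32, and the last overlapped a gene in the reference. The gap behind COL5 (AT5G57660), a B-box gene, held 3 with ratios of 3.70, 4.57 and 3.51 and another called region at 2.20.

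Of the members, 7 had a microRNA gene as a neighbour. MIR160a, whose microRNA targets auxin response factors, had 2, with 355 and 184 ChIP reads over 46 and 0 control reads (ratio 5.86) and 135 and 64 over 24 and 0 (ratio 4.15), and both were convergent in the reference. MIR166e, of the family that targets HD-ZIP III genes, had a region with 76 and 33 ChIP reads over 14 and 1 control reads, a ratio of 3.63, at 2884 bp. Its neighbours were tandem in the reference models.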
